A study of Sus scrofa with 67 samples.

Results

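A set of 153 pig genes, of the 25322 in the count table, had lower mean levels on day 9 than on day 0 of the oestrous cycle in both the endometrium and the oviduct, while their mean levels in the ovary lay closer together on those days. Levels are given as CPM, a gene's read count as a share of its library's total count, scaled to the same total in every library. To choose the members, 1 CPM was added to the mean CPM of a tissue on each day, and the day 9 value was divided by the day 0 value. A gene was a member where this ratio was at most 0.5 in the endometrium and in the oviduct, and was above 0.5 and under 2 in the ovary. Days 0 and 9 are therefore described here without a test. All tests compare libraries of days 3, 6, 12 and 18, none of which entered the rule. The scaling, the filter and the spread of each fit came from all 7 days, days 0 and 9 included.

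Day 0 is the first day of oestrous behaviour, close to ovulation, when the follicles have made large amounts of oestrogen. After ovulation the emptied follicles become corpora lutea, which release progesterone through the luteal phase and regress towards its end, after which new follicles grow and the next oestrus follows. The endometrium is the inner lining of the uterus, and the oviduct carries the egg and the early embryo to it. Oestrogen is known to drive cell division in the epithelium of both organs, and progesterone to restrain oestrogen's action there, whereas the ovary holds the follicles and corpora lutea themselves and has dividing granulosa and luteal cells of its own. The members with a gene symbol that work in cell division include the cyclin-dependent kinase that starts mitosis and motors and checkpoint proteins of the spindle. They also include factors that act in DNA replication and an enzyme that untangles DNA. A second group builds the extracellular matrix, the collagen and elastic fibres that fibroblasts lay down around the epithelium.

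The tissues came from crossbred Landrace × Yorkshire gilts, which are young sows that have not yet farrowed, with no treatment or allele named in the labels, and each gilt had passed through earlier cycles of normal length. Endometrium, ovary and oviduct were each taken every 3 days from day 0 to day 18, which gives 21 groups of a tissue and a day. The 66 libraries hold poly-A RNA, 1 tissue of a gilt in each. Most groups had 3 libraries. The ovary of day 3 and the oviduct of day 6 had 2, and 4 were made from the endometrium of day 15 and from both other tissues on day 12 and on day 15. The endometrium was separated from the muscle wall, the oviduct piece was the ampulla, and 1 ovary was taken whole, so that an ovary library mixes follicles of all sizes, corpora lutea and stroma. In such bulk samples, fewer cells of a type and less RNA per cell cannot be told apart. The study's methods speak of 3 gilts per day and the series text of 23 pigs in all. How these pigs fall on the days is not stated, and p-values measure the spread between these libraries.

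Library totals lay between 8962103 and 13442083 counts, and 3 counts, taken as the lowest detectable level, correspond to 0.223 to 0.335 CPM. Marker genes of each tissue were looked up as a check of the labels. The 6 of 10 listed ovary markers (granulosa, theca and luteal cell genes) that could be paired with an identifier summed to 559 to 13803 CPM in the ovary. They summed to 1.73 to 8.14 CPM in the endometrium and 5.73 to 255 CPM in the oviduct. The 3 of 8 ciliated cell markers that could be paired summed to 1291 to 2447 CPM in the oviduct, against 127 to 712 CPM in the endometrium and 13.4 to 326 CPM in the ovary. A few libraries stood apart from others of their group. Library 1 of the ovary on day 15 had the highest ciliated cell sum of the ovary, 326 CPM, and library 1 of the ovary on day 12 had 4462 CPM of 5 smooth muscle genes, against 271 to 385 CPM in the other 3. Library 2 of the oviduct on day 0, library 4 of the oviduct on day 15 and library 3 of the endometrium on day 3 had high levels of the cell division genes, as described with those genes.

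Of the 153 members, 112 could be paired with a symbol. By what their symbols are known for, 46 were put in a cell division group, 17 in a matrix and stroma group and 49 under other functions, and the 41 without a symbol formed the rest. The day 9 to day 0 ratio of the members had a median of 0.368 in the endometrium (0.0027 to 0.4998), 0.355 in the oviduct (0.0313 to 0.496) and 0.937 in the ovary (0.5004 to 1.93). In the cell division group the median ratio in the ovary was 1.15, and in the matrix and stroma group it was 0.851. MATN1, a cartilage matrix protein, lay just inside the rule with a ratio of 0.4998 in the endometrium, and MRC1, the macrophage mannose receptor, lay just outside it with 0.5001. All other values of the members on days 0 and 9 follow from the rule and carry no weight as results. A library decided part of the membership: without library 2 of the oviduct on day 0, the rule found 93 genes, of which 85 were among the 153. These kept 4 of the 46 cell division genes, 15 of the 17 matrix and stroma genes and 40 of the 49 genes of other functions. Without any other single library of day 0 or 9, the rule found 145 to 177 genes.

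**Figure D1:**
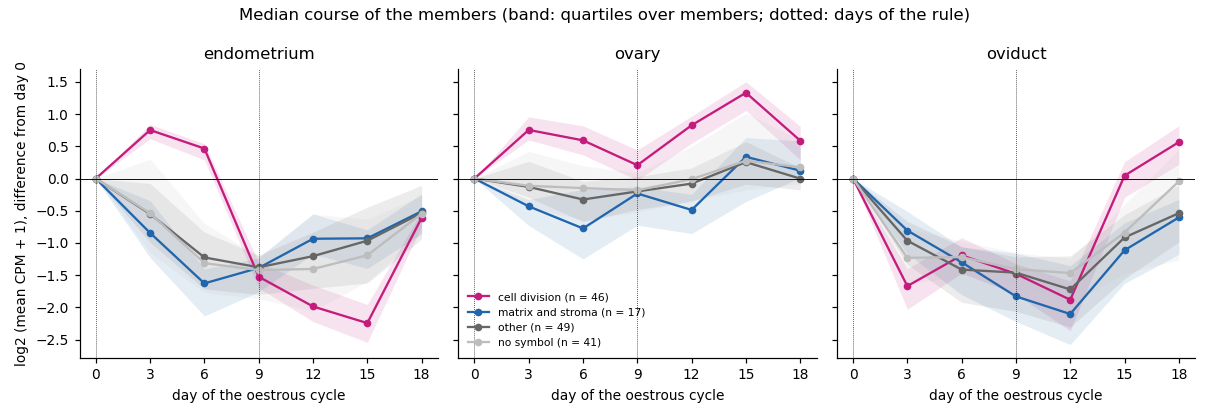
Median over the members of each group of the log2 ratio of the mean CPM + 1 to that of day 0 (y axis, log2 units) on each day of the cycle (x axis, days), for the endometrium, the ovary and the oviduct, with 1 line per gene group and a band for the quartiles over its members. The dotted days 0 and 9 were used to choose the members. In the endometrium the median of the cell division genes lay at 0.75 on day 3 and at -2.24 on day 15, and in the oviduct, where library 2 raised the day 0 mean of these genes, at -1.88 on day 12 and 0.57 on day 18.

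Levels of the cell division genes in the endometrium were higher on days 3 and 6 than on days 12 and 15. Summed over the 46 genes, the 3 endometrium libraries had 558, 706 and 899 CPM on day 0, 500.1, 554 and (library 3) 2438 CPM on day 3, and 595, 848 and 1465 CPM on day 6. The sums were then 145, 170.2 and 306 CPM on day 9, 104, 129.9 and 238 CPM on day 12, 81.3 to 150.2 CPM in the 4 libraries of day 15, and 108, 457 and 726 CPM on day 18. On the days that the rule did not use, all libraries of days 3 and 6 thus lay above all libraries of days 12 and 15, and those of day 18 reached into both ranges. Of these days, day 3 had the highest mean in 42 of the 46 genes and day 15 the lowest in 39. The first rank rested on library 3 of day 3, without which day 6 had the highest mean in 44 genes and day 3 in 1. Without library 3 of day 12, day 15 had the lowest mean in 22.

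In the oviduct the sums were lower in every library of days 3, 6 and 12 than in those of day 18. They were 91.8, 136 and 160.2 CPM on day 3, 177 and 237 CPM on day 6, 111, 113 and 194 CPM on day 9 and 85.8 to 101 CPM in the 4 libraries of day 12, against 296, 848 and 1701 CPM on day 18. On day 0 library 2 had 1238 CPM and the other 2 libraries had 219.8 and 245 CPM, and on day 15 library 4 had 1738 CPM and the other 3 had 99.7 to 136 CPM. Library 2 of day 0 was the highest of its day in all 46 genes, at a median of 4.36 times the mean of the other 2 libraries, and without it 4 of the 46 stayed members. That library also had 52875 CPM of 5 secretory epithelium genes, against 144674 and 169522 CPM in the other 2. The part of these cells in the ratios was not tested.

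In the ovary the cell division genes were detected on every day, and libraries of the same day lay far apart. The sums were 778 and 984 CPM on day 3, 462, 698 and 1214 CPM on day 6, and 223, 398 and 1682 CPM on day 18. On day 12 they were 289, 295, 408 and 2660.5 CPM, and on day 15 they were 132, 559, 2254 and 2300.3 CPM. By the mean of the 7 day means, 42 of the 46 cell division genes (91.3%) were highest in the ovary, against 27.8% of the 16934 genes tested in the 3 tissues together, and by the median over all libraries of a tissue 43 were. The order changed with the day: the endometrium was the highest tissue for 41 of the 46 genes on day 3 and for 34 on day 6, and the ovary for 45 on day 12, 44 on day 15 and 27 on day 18.

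**Figure D2:**
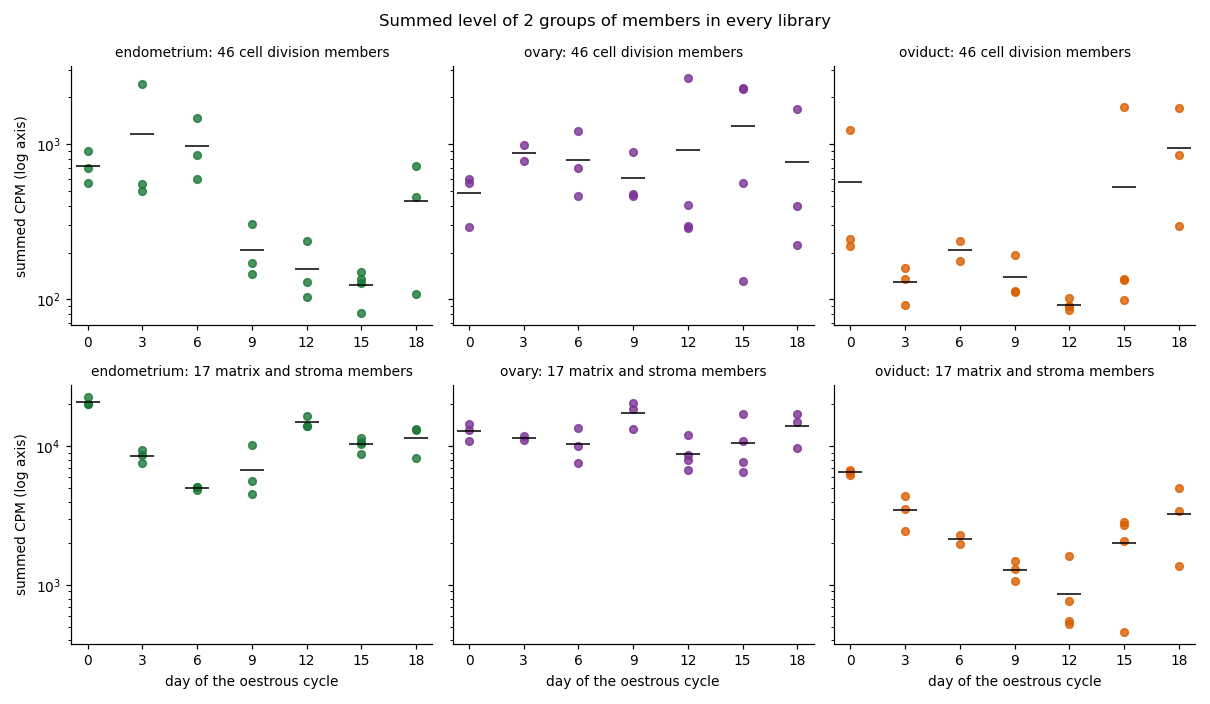
Summed CPM of the 46 cell division members and of the 17 matrix and stroma members (y axis, CPM, log scale) in each library on each day of the cycle (x axis, days), with 1 point per library, a black bar at the mean of each day and 1 column of panels per tissue. The cell division sums of the endometrium were 500.1 CPM or more in all libraries of days 3 and 6 and 238 CPM or less on days 12 and 15, while the matrix sums of the endometrium were 4858 to 5125 CPM on day 6 and 14048 to 16629 CPM on day 12.

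Between days 6 and 12, both in the luteal phase, 40 of the 46 cell division genes fell in the endometrium and 0 rose, with a median log2 change of -2.97 (range -4.67 to -0.07). This comparison was added after the time courses had been seen. Over all members, 55 of the 152 tested fell and 14 rose, where 7.33% and 6.69% of all 15341 genes tested did (edgeR quasi-likelihood test, Benjamini-Hochberg adjusted p under 0.05). The largest fall in this group was that of PCLAF, which binds the sliding clamp of DNA replication: its libraries had 29.3, 31.4 and 59.6 CPM on day 6 and 0.432, 1.60 and 2.81 CPM on day 12 (log2 change -4.67, SE 0.92, adjusted p = 0.00291 by edgeR). TOP2A, the topoisomerase that untangles chromosomes, had 74.5, 143 and 224 CPM on day 6 and 2.42, 10.3 and 18.7 CPM on day 12 (log2 change -3.84, SE 0.93, adjusted p = 0.0112 by edgeR). CDK1, the kinase that starts mitosis, had 10.5, 16.2 and 30.3 CPM on day 6 and 1.04, 1.71 and 3.54 CPM on day 12 (log2 change -3.21, SE 0.93, adjusted p = 0.0279 by edgeR). In all 3 genes the lowest library of day 6 lay above the highest of day 12. The spindle checkpoint kinase BUB1 fell by 3.56 and the mitotic cyclin CCNB2 fell by 2.98 on the log2 scale. The kinetochore protein NDC80 fell by 3.96, the spindle protein HMMR fell by 3.90 and FOXM1, a transcription factor of mitotic genes, fell by 2.49 on that scale. ANLN, PLK1, CDT1, GTSE1, CHTF18 and CIT did not pass the test. The number of cell division genes that fell was 18 without library 1 of day 6, 19 without library 1 of day 12 and 25 without library 2 of day 12, and over all members the number was 20, 21 and 32.

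Neither of the other tissues had a called member between days 6 and 12. In the oviduct 0 of 152 members passed edgeR's test (0.0% of all genes did in either direction), with 10 lower and 0 higher at an unadjusted p under 0.05 and 0 by DESeq2. In the ovary 0 of 139 passed (again 0.0% of all genes), with 3 lower and 4 higher at an unadjusted p under 0.05 and 1 lower by DESeq2. The median log2 change of the cell division genes in the oviduct was -1.16, negative in 45 of 46, and only 2 oviduct libraries were available for day 6. Whether this step differed between the tissues was not tested.

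From day 12 to day 18, when the corpora lutea regress and new follicles grow, 43 of the 46 cell division genes rose in the oviduct, with a median log2 change of 3.65 (range 0.93 to 6.396). Over all members, 111 of 152 rose and 0 fell, where 13.4% of all 15665 genes tested rose and 8.98% fell. NDC80 had 0.0977, 0.107, 0.112 and 0.197 CPM on day 12, below the level of 3 counts, and 1.71, 12.5 and 15.3 CPM on day 18 (log2 change 6.396, SE 1.41, adjusted p = 0.0065 by edgeR). Its fitted change is therefore not a bound on the true one. TOP2A had 3.57, 4.61, 6.25 and 7.77 CPM on day 12 and 34.9, 60.2 and 153 CPM on day 18 (log2 change 4.11, SE 1.11, adjusted p = 0.0158 by edgeR). CDK1 had 0.669 to 0.977 CPM in the 4 libraries of day 12 and 4.51, 37.7 and 41.4 CPM on day 18 (log2 change 5.34, SE 1.22, adjusted p = 0.00773 by edgeR). All day 18 libraries of these 3 genes lay above all day 12 libraries. The number of cell division genes that rose was 26 without library 2 and 27 without library 3 of day 12, and 19 without library 2 and 25 without library 3 of day 18. Over all members 48 rose without library 2 of day 18, and in the group of other functions 17 in place of 31.

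In the endometrium the same step gave 33 higher and 2 lower members of 152, where 9.43% of all genes rose and 10.8% fell. The 2 that fell were CASQ1, the calcium store protein of muscle, and a gene without a symbol. The 5 cell division genes of 46 that rose, a share near that of all genes, were HMMR, BUB1B, DLGAP5, KIF2C and RACGAP1. The median log2 change of the 46 genes was 1.58, positive in 45, and 26 were higher at an unadjusted p under 0.05. Library 1 of day 18 had the lowest cell division sum of that day, 108 CPM, and without it 18 of the 46 passed. The count was 0 without library 2 of day 18 and 1 without its library 3 or without library 1 or 2 of day 12. Over all members it was 17 to 20 without library 1 or 2 of day 12 or library 2 or 3 of day 18. In the ovary 0 of 139 members passed edgeR's test, where 2.31% of all genes fell and 0.62% rose, with 4 lower and 10 higher at an unadjusted p under 0.05 and 4 higher by DESeq2. Without library 1 of the ovary on day 12, the library with high smooth muscle genes, 14 members rose, of which 5 were matrix and stroma genes. In the same fit 2 of the genes of other functions fell.

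The matrix and stroma genes had their lowest means on day 6 in the endometrium and on day 12 in the oviduct, a difference that was not tested. Of the days not used by the rule, day 6 had the lowest endometrium mean in 15 of the 17 genes, while in the oviduct day 12 had it in 16 of 17. Summed over the 17 genes, of which the fibrillar collagen gene COL3A1 made up the largest part, the endometrium had 7562, 8695 and 9353 CPM on day 3, 4858, 5100.0 and 5125 CPM on day 6, 14048, 14082 and 16629 CPM on day 12 and 8165, 13145 and 13215 CPM on day 18. In the oviduct the sums were 2442, 3520.1 and 4387 CPM on day 3, 1982 and 2302 CPM on day 6, 521 to 1629 CPM on day 12, and 1369.8, 3415 and 4999 CPM on day 18. Every endometrium library of day 12 thus lay above every one of day 6, and every oviduct library of day 12 lay below both of day 6.

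COL3A1 had 3699.7, 3801 and 4015 CPM on day 6 in the endometrium and 11465, 11480.1 and 13344 CPM on day 12, and rose by a log2 change of 1.59 (SE 0.25, adjusted p = 0.000592 by edgeR). COL1A2, a chain of type I collagen, had 692, 711 and 798 CPM on day 6 and 1946, 1958 and 2272 CPM on day 12 (log2 change 1.43, SE 0.22, adjusted p = 0.000479 by edgeR). The groups did not overlap in either gene. LOX, which crosslinks collagen and elastin, rose by a log2 change of 1.73, elastin itself (ELN) by 1.499, the fibronectin receptor chain ITGA5 by 1.26 and the adhesion protein SVEP1 by 0.82, so that 6 of the 17 genes rose and 0 fell. The count was 3 without library 1 or 2 of day 6 or library 3 of day 12. Beside this, the endometrium had 2 of 4 tested stromal fibroblast markers called higher between these days, and some of those markers are collagens too. The part of a change in the number of stromal cells was not tested.

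In the oviduct COL3A1 had 1607, 2218 and 3289 CPM on day 3, 1381 and 1645 CPM on day 6, 273, 294, 438 and 979.9 CPM on day 12 and 709, 2240.0 and 3255 CPM on day 18. From day 12 to day 18 it rose by a log2 change of 2.37 (SE 0.60, adjusted p = 0.0119 by edgeR), although 1 library of day 18 lay below the highest of day 12. In the endometrium its change over the same days was -0.56 (adjusted p = 0.108 by edgeR). CD248, the endosialin of stromal cells and pericytes, had 11.8, 16.3, 18.3 and 24.1 CPM on day 12 and 72.7, 75.2 and 109 CPM on day 18 in the oviduct, with a log2 change of 2.54 (SE 0.37, adjusted p = 0.00239 by edgeR). Altogether 12 of the 17 matrix genes rose in the oviduct over these days, and 2 did without library 2 of day 18. That library had 18825 CPM of the 5 smooth muscle genes and 4308 CPM of 4 stromal fibroblast genes. The other 2 libraries of day 18 had 9314 and 9643 CPM of the smooth muscle genes, and those of day 12 had 1808 to 9202 CPM. Their part in the result was not tested.

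A planned test set the mean of days 6 and 12 against the mean of days 3 and 18, as a measure of a mid-cycle low on days that the rule did not use. In the endometrium 54 of the 152 members tested were lower mid-cycle and 1, CASQ1, was higher, where 15.1% of all 15341 genes were lower and 15.2% higher (edgeR quasi-likelihood test, Benjamini-Hochberg adjusted p under 0.05). In the oviduct 41 of 152 were lower and 0 higher, where 4.49% of all 15665 genes were lower and 2.71% higher. In the ovary 0 of 139 passed, as did 0.0% of all 15638 genes, with 3 members lower and 4 higher at an unadjusted p under 0.05 and 2 higher by DESeq2. Without library 1 of the ovary on day 12, 7 ovary members were lower, and 2 of the genes of other functions were higher. The median log2 change of the members was -0.82 in endometrium and -1.50 in oviduct against 0.16 in ovary. Over all genes tested it was -0.02, -0.02 and -0.00 in these tissues. The ovary median of the cell division genes, 0.25, rested on library 1 of day 12, without which it was -0.33. In both endometrium and oviduct, 17 of the 151 members tested in both were lower, where 0.726% of all genes tested in both were. Of the members kept without library 2 of the oviduct on day 0, 41 were lower in the endometrium, 38 in the oviduct and 16 in both.

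By function, 5 of 46 cell division genes were lower mid-cycle in the endometrium and 0 of 46 in the oviduct. Both are under the shares of all genes that were lower, 15.1% and 4.49%. All 46 changes were negative in each tissue, with medians of -0.84 and -1.59. At an unadjusted p under 0.05, 19 of the 46 were lower in the oviduct, and 13 passed in a fit of only the days compared, which leaves out the high libraries of days 0 and 15. In the endometrium the count was 14 without library 1 of day 18, which had the low sum. It was 0 without library 3 of day 3, library 2 or 3 of day 6, library 1 of day 12 or library 2 of day 18, and 1 to 3 without library 2 or 3 of day 12 or library 3 of day 18. Of the matrix and stroma genes 9 of 17 were lower in the endometrium and 11 of 17 in the oviduct. Their median log2 changes were -0.59 and -1.45. The 11 in the oviduct became 1 without library 2 of day 18 and 2 without library 1 of day 3. They became 3 to 5 without library 2 of day 3, library 2, 3 or 4 of day 12 or library 3 of day 18. Of the genes of other functions, 23 of 48 were lower in the endometrium and 23 of 49 in the oviduct. That oviduct count was 8 to 13 without library 1 or 2 of day 3, library 2, 3 or 4 of day 12 or library 2 of day 18. Markers of other cells moved too. In the endometrium 2 of 3 leukocyte, 1 of 2 endothelial, 1 of 4 stromal fibroblast and 1 of 5 smooth muscle markers tested were lower mid-cycle. Of 5 secretory epithelium markers there, 1 was lower and 2 were higher. In the oviduct 2 of 4 stromal fibroblast and 1 of 5 secretory epithelium markers were lower. Higher there were 1 of 3 leukocyte and 1 of 4 ovary markers tested. The part of these cells in the counts was not tested. The oviduct counts depended on single libraries: over all members, 0 passed without library 2 or library 3 of day 6, which left 1 library of that day, assumed to vary like the other groups. The count was 18 to 23 without library 1 or 2 of day 3 or library 2, 3 or 4 of day 12, 14 without library 2 of day 18 and 66 without library 1 of day 18. The count lower in both tissues moved with these libraries, from 17 to 0 without either library of day 6 and to 27 without library 1 of day 18, and it was 11 without library 3 of day 18.

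**Figure D3:**
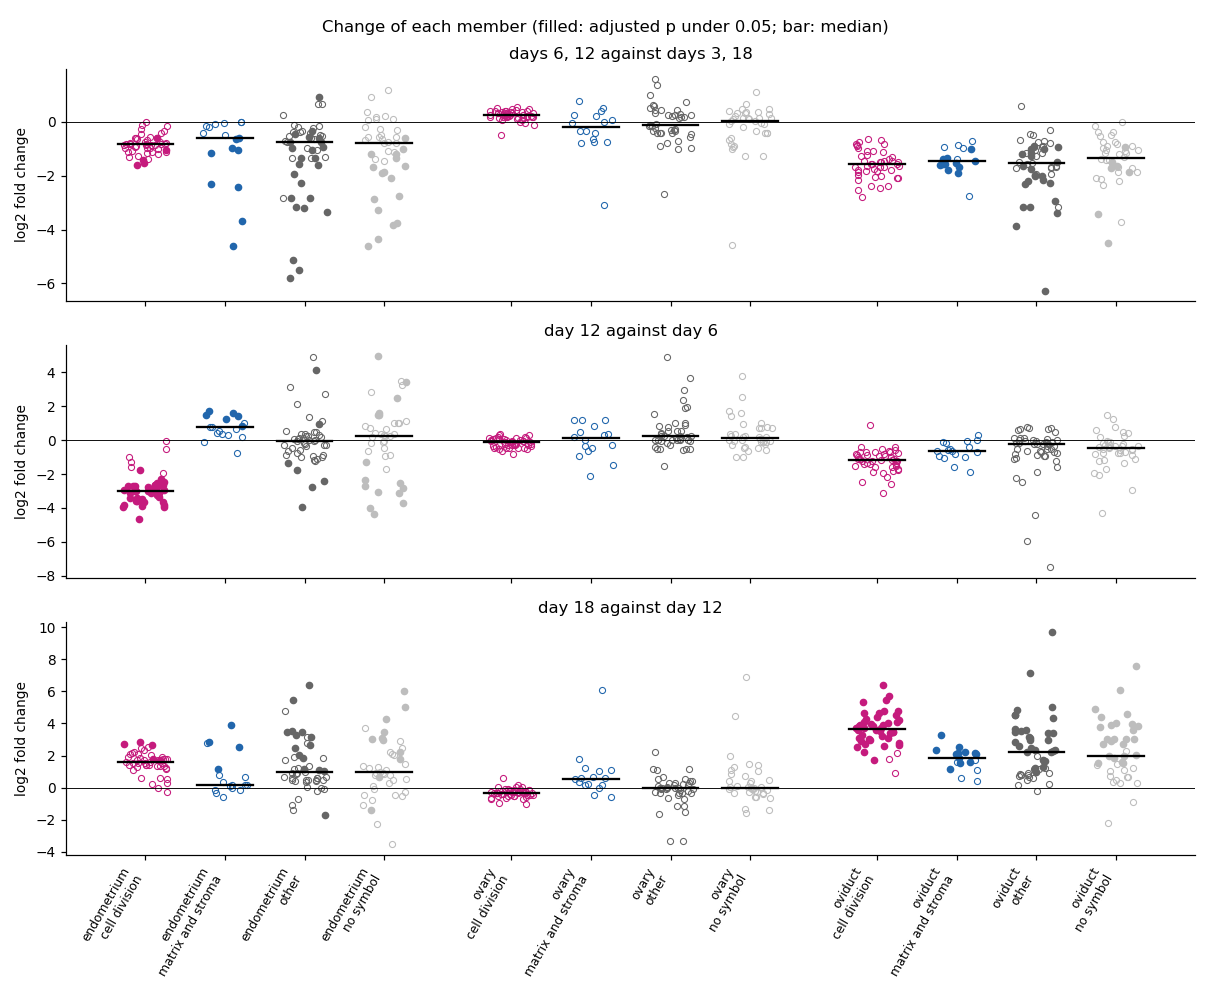
Log2 fold change of each member in the mean of days 6 and 12 against the mean of days 3 and 18, in day 12 against day 6 and in day 18 against day 12 (y axis, log2 units), by gene group (x axis) and tissue, with 1 point per gene, filled where its adjusted p was under 0.05, and a bar at the median. In day 12 against day 6 the median of the cell division genes was -2.97 in the endometrium while that of the matrix and stroma genes was 0.77.

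Of the 15 members with a symbol that were lower mid-cycle in both tissues, OLFM4 and LBP had the lowest fitted changes in each. OLFM4, a secreted glycoprotein of glandular epithelium, had 0.727, 2.05 and 14.2 CPM on day 3, at most 0.0924 CPM on days 6 and 12, and 0, 0.702 and 3.05 CPM on day 18 in the endometrium. In the oviduct it had 1.66, 4.42 and 36.3 CPM on day 3, 0.688 and 4.25 CPM on day 6, 0 in all 4 libraries of day 12 and 2.95, 10.9 and 14.8 CPM on day 18. The fitted log2 changes were -5.81 (SE 1.22, adjusted p = 0.00187 by edgeR) and -6.27 (SE 1.59, adjusted p = 0.0351 by edgeR), which are no bounds because many libraries lay under the level of 3 counts. OLFM4 was thus under the level of 3 counts on days 6 and 12 in the endometrium and on day 12 in the oviduct, and in the ovary it was at most 0.464 CPM in every library. LBP, which binds bacterial lipopolysaccharide, had 0.312, 1.16 and 3.90 CPM on day 3 and 0 in all 3 libraries of day 6 in the endometrium (log2 change -5.12, SE 1.14, adjusted p = 0.00333 by edgeR). In the oviduct it had 5.70 and 5.78 CPM on day 6, at most 0.335 CPM on day 12 and 2.34, 8.86 and 22.0 CPM on day 18 (log2 change -3.38, SE 0.98, adjusted p = 0.0453 by edgeR). LBP was at or under the level of 3 counts on days 6 and 12 in the endometrium and on day 12 in the oviduct.

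CLRN3, a membrane protein of the clarin family, had 0.893, 2.47, 4.40 and 6.49 CPM on day 12 in the oviduct and 19.9, 42.9 and 43.0 CPM on day 18. Its rise by a log2 change of 3.56 (SE 0.72, adjusted p = 0.00463 by edgeR) separated the 2 days completely. In the endometrium CLRN3 had at most 0.739 CPM on days 6 and 12 and 4.56, 7.14 and 10.8 CPM on day 18. TNNI1, the troponin I of slow muscle fibres, had 5.02, 10.4 and 16.3 CPM on day 3 and 0.713, 0.832 and 1.58 CPM on day 6 in the endometrium. It was lower mid-cycle by a log2 change of -2.82 (SE 0.46, adjusted p = 0.000286 by edgeR) there and of -2.20 (SE 0.60, adjusted p = 0.0386 by edgeR) in the oviduct. REXO2, an exonuclease that clears short RNA in mitochondria, had 11.7, 13.7, 18.1 and 24.7 CPM on day 12 in the oviduct and 80.3, 140.4 and 243 CPM on day 18, a log2 change of 3.48 (SE 0.53, adjusted p = 0.00239 by edgeR). In the endometrium it had 5.90, 6.65 and 8.43 CPM on day 12 and 18.0, 32.9 and 38.4 CPM on day 18, a log2 change of 2.02 (adjusted p = 0.00478 by edgeR). On day 18 the levels of REXO2 overlapped those of day 0 in both tissues, which were 23.5 to 36.5 CPM in the endometrium and 122 to 215 CPM in the oviduct.

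**Figure D4:**
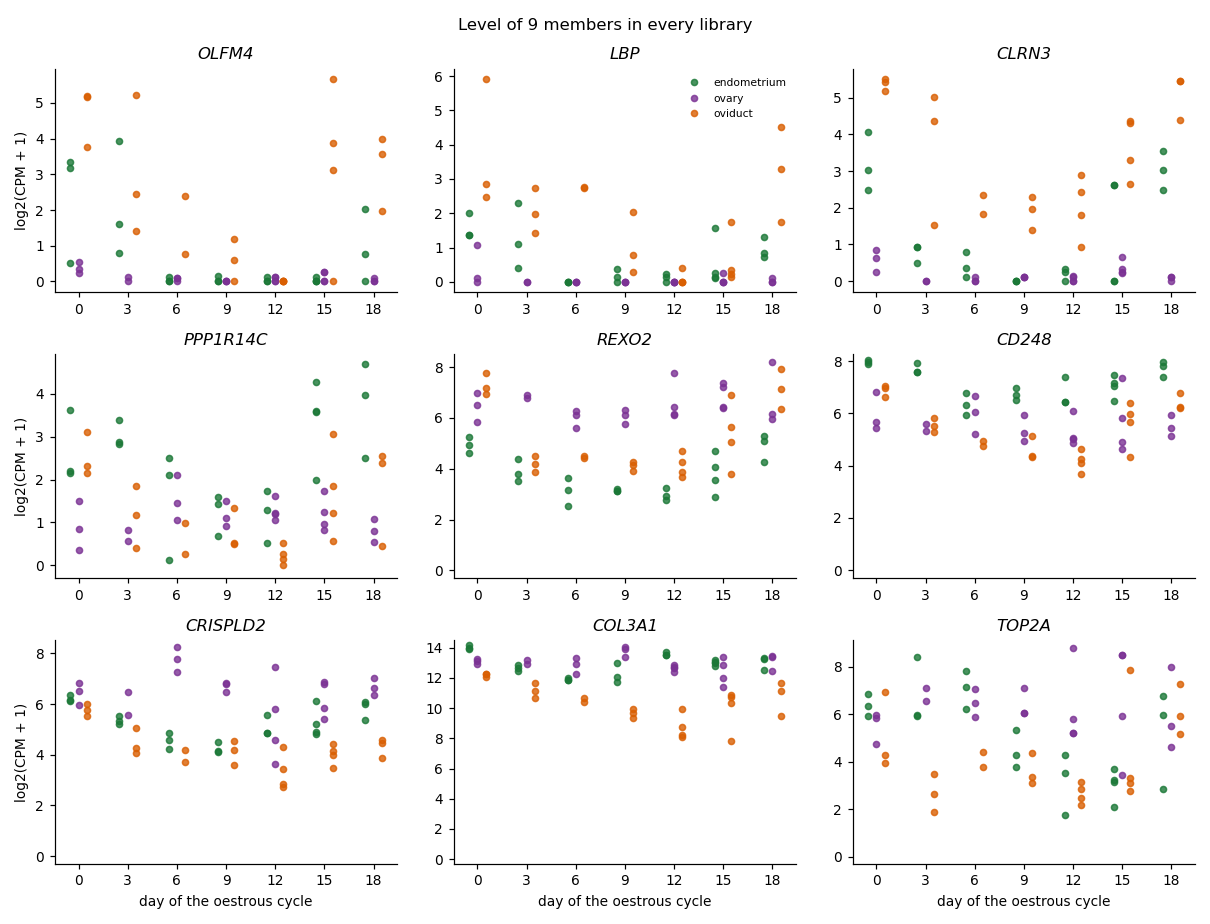
Level of 9 members (y axis, log2 of CPM + 1) in each library on each day of the cycle (x axis, days), with 1 point per library and 1 color per tissue. OLFM4 was at most 0.0924 CPM in the endometrium on days 6 and 12 and 0 in all 4 oviduct libraries of day 12, and REXO2 in the oviduct was 24.7 CPM or less on day 12 and 80.3 CPM or more on day 18.

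The remaining members lower mid-cycle in both tissues were of several kinds. The volume-regulated anion channel subunit LRRC8C had a log2 change of -1.04 in the endometrium and -1.03 in the oviduct, and the small leucine-rich proteoglycan ASPN, which binds collagen, had -1.04 and -1.55. CD248 had -0.98 and -1.78. MYO7A, an unconventional myosin, had -1.92 and -2.03, and the short-chain collagen gene COL8A1 had -2.33 and -1.55. KDELR3, which returns proteins to the endoplasmic reticulum, had -0.47 and -1.15, the secreted peptidase CPQ had -0.34 and -0.91, and the collagen-binding CPXM1 had -0.59 and -1.38. PPP1R14C, an inhibitor of protein phosphatase 1, had -2.27 and -2.95. For CRISPLD2, a secreted protein that binds lipopolysaccharide, the changes were -0.64 and -1.02, with adjusted p of 0.0469 and 0.0473 by edgeR.

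Some members were lower mid-cycle in 1 of the tissues only by their own tests. MMP9, the gelatinase that cuts collagen IV, had 6.55, 8.93 and 44.7 CPM on day 3, 0.268, 0.277 and 0.739 CPM on day 6, 0.427, 0.454 and 0.777 CPM on day 12 and 0.960, 12.2 and 14.4 CPM on day 18 in the endometrium (log2 change -4.63, SE 0.62, adjusted p = 7.38e-05 by edgeR). In the oviduct its change was -0.98 (SE 0.54, adjusted p = 0.240 by edgeR), and the difference between the tissues, -3.67, passed its own test (adjusted p = 0.0401 by edgeR on all 66 libraries). SELENOM, a selenoprotein of the endoplasmic reticulum, had 10.15, 13.98, 15.97 and 25.2 CPM on day 12 and 43.2, 79.4 and 186 CPM on day 18 in the oviduct. Its mid-cycle change was -2.17 there and -0.12 in the endometrium, a difference of 2.03 (adjusted p = 0.0017 by edgeR). The water channel AQP5, with a difference of 4.50, and CASQ1, with 2.92, also had the lower change in the oviduct. CPT1C, of the carnitine palmitoyltransferase family, went the other way with -1.34.

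Whether the mid-cycle change differed between tissues was tested for all 153 members in a joint fit of the 66 libraries, which did not pair tissues by gilt. Against the ovary, the change was lower in the endometrium for 14 members, where 6.15% of all 16934 genes were, and higher for 0, where 6.14% were. It was lower in the oviduct than in the ovary for 22, where 7.19% were, and higher for 0, where 4.38% were. The share of members was 9.15% for the endometrium, near its background, and 14.4% for the oviduct. Without library 1 of the ovary on day 3, 8 members differed between endometrium and ovary and 9 between oviduct and ovary. Both comparisons use the same ovary libraries, and the rule asked for a difference from the ovary on other days. Between endometrium and oviduct the change was lower in the endometrium for 4 members and higher for 13, where 5.92% and 8.18% of all genes were, and 2.61% and 8.50% of the members, which is under and near these shares. The median difference was -0.93 for endometrium against ovary, -1.56 for oviduct against ovary and 0.53 for endometrium against oviduct.

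Among the named members, PPP1R14C, LRRC8C, MYO7A and CD248 differed from the ovary in both tissues. PPP1R14C had 1.06, 1.74 and 3.34 CPM on day 6 in the ovary and 0.469 and 0.776 CPM on day 3, so its ovary change was 1.58, and the differences were -3.82 for the endometrium (adjusted p = 0.0038 by edgeR) and -4.47 for the oviduct (adjusted p = 0.0047 by edgeR). LRRC8C had 42.3 to 52.3 CPM in the 7 ovary libraries of days 6 and 12, and 8.69 to 16.1 CPM in the endometrium and 6.65 to 19.4 CPM in the oviduct on those days. Its differences were -1.501 (adjusted p = 0.0052 by edgeR) and -1.48 (adjusted p = 0.0100 by edgeR). CD248 had differences of -1.44 (adjusted p = 0.0246 by edgeR) and -2.22 (adjusted p = 0.0019 by edgeR), and MYO7A of -1.72 and -1.81. Of the cell division genes, 0 of 46 differed by edgeR between endometrium and ovary or between endometrium and oviduct, with 2 lower and 2 higher at an unadjusted p under 0.05. ANLN, an actin-binding protein of the cleavage furrow, differed between oviduct and ovary by -2.19 (adjusted p = 0.0491 by edgeR), and the count of cell division genes that differed there was 0 to 3 without single libraries. Among the matrix genes, COL3A1 (1.66), the procollagen chaperone RCN3 (1.37) and the procollagen peptidase ADAMTS2 (1.28) differed between endometrium and oviduct, with the lower mid-cycle change in the oviduct. The count of members that differed between oviduct and ovary was 12 without library 3 of the oviduct on day 6, 14 without library 2 and 34 without library 1 of the oviduct on day 18. Between endometrium and oviduct 11 differed without library 3 of the endometrium on day 12 or library 3 of the oviduct on day 6.

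The step from day 3 to day 6 was called in the endometrium alone by each tissue's own test. There 28 members fell and 0 rose, where 10.0% of all genes fell. MMP9 fell by 5.33 on the log2 scale, LOX fell by 2.01, SRPX2, a secreted sushi-repeat protein, fell by 2.01, CPXM1 fell by 1.52 and CD248 fell by 1.15. The count included 6 of the 17 matrix genes, 12 genes of other functions, 10 without a symbol and 0 of the 46 cell division genes, of which 1 was lower at an unadjusted p under 0.05 and whose median log2 change was -0.15. Without library 3 of day 3 that median was 1.08, with the opposite sign. In the same step the 3 tested leukocyte markers fell, with log2 changes of -1.76 for PTPRC, -2.09 for CD68 and -1.22 for CD14, and so did 1 of 2 endothelial markers, the receptor KDR, with -1.30. The summed leukocyte markers had 61.0 to 139 CPM on day 3 and 21.7 to 32.4 CPM on day 6, and the endothelial markers 376 to 448 CPM and 156 to 177 CPM. Of 5 secretory epithelium markers, 1 rose in this step and 0 fell. The part of these cells in the members' fall was not tested. In the oviduct 0 of 152 passed edgeR's test, as did 0.0% of all genes, with 23 lower and 0 higher at an unadjusted p under 0.05 and 1 lower by DESeq2. In the ovary 0 of 139 passed, with 0 lower and 6 higher at an unadjusted p under 0.05 and 0 by DESeq2. The endometrium count was 13 to 18 without library 1 or 2 of day 3 or library 2 or 3 of day 6.

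Gene lists that were not built from the members gave the surroundings of these changes. Of 8 listed cell cycle genes that could be paired, 8 fell in the endometrium between days 6 and 12. From day 12 to day 18, 7 of the 8 rose in the oviduct. CCNB2, CDK1, TOP2A and BUB1 of this list are members and are counted with them above. MCM2 and MCM3, of the helicase that opens DNA for replication, are not members, and were lower mid-cycle in the endometrium by log2 changes of -0.88 and -1.03 (adjusted p = 0.0279 and 0.0242 by edgeR). Of 9 collagen and matrix genes, 4 were lower mid-cycle in the endometrium and 2 in the oviduct, and 5 rose in the endometrium between days 6 and 12. Of 5 chaperones of the secretory pathway, 4 were lower mid-cycle in the oviduct, and between days 12 and 18 4 rose there and 3 in the endometrium. Of 8 steroid receptor and oestrogen-responsive genes tested in the endometrium, 3 were lower mid-cycle and 1 higher, and in the oviduct 2 were lower. Of 5 genes of Wnt and FGF signalling 2 were lower in the endometrium and 1 in the oviduct. Among all genes tested, 15.1% were lower and 15.2% higher mid-cycle in the endometrium, and 4.49% were lower in the oviduct. Between days 6 and 12, 7.33% fell and 6.69% rose in the endometrium. Between days 12 and 18, 9.43% rose there and 13.4% in the oviduct.

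Gene sets chosen by the same kind of rule are given side by side with the 153 members. The 94 genes lower on day 9 in all 3 tissues had 52.1% lower mid-cycle in the endometrium and 38.3% in the oviduct, against 35.3% and 26.8% of the 153 members. Of the 830 genes lower in the endometrium only, 61.1% were lower mid-cycle there and 2.77% in the oviduct, and of the 273 genes lower in the oviduct only, 5.86% were lower mid-cycle in the endometrium and 28.2% in the oviduct. Between days 6 and 12 in the endometrium, 35.9% of the members fell, against 3.19%, 9.28% and 4.76% of those sets. Of the members that fell, 40 were cell division genes. Without library 2 of the oviduct on day 0 the rule kept 4 of the 46 genes of that group. From day 12 to day 18 in the oviduct, 72.5% of the members rose, against 57.4%, 15.3% and 48.4%. Of the 85 members kept without that library, 52 rose in this step. The mid-cycle change was lower in the endometrium than in the ovary for 9.15% of the members and 9.57% of the genes lower in all 3 tissues. Each share is of all genes of a set, with or without a test. In the endometrium 196 of the 273 genes lower in the oviduct only passed the filter and had a test. These shares describe sets chosen on the same libraries of days 0 and 9, and the differences between them were not tested.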

How the data were processed

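The authors trimmed the paired-end reads, mapped them with TopHat2 to the pig genome with Ensembl genes, and deposited whole-number counts per gene for 66 libraries. The counting tool's settings, strand included, are not given in the sources used here, although featureCounts is among the tools in the submitters' notes. The labels list 67 samples, of which a further endometrium sample (day 12) was not analysed here. Columns were assigned to tissue and day by their names.

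Symbols were paired for 11804 of 25322 identifiers. The counts of each tissue, all 7 days, were fitted in edgeR 4.0.16 (R 4.3.3) with TMM scaling, filterByExpr, robust glmQLFit and glmQLFTest, with Benjamini-Hochberg adjustment over all genes tested. SE was taken from the log2 change and the F statistic. Of the 153 members, 152 passed the filter in the endometrium, 139 in the ovary, 152 in the oviduct and 153 in the joint fit. A member could pass through the days when it was high.

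The members, groups and gene lists were chosen with earlier results of these data known. The rule for named genes took members lower mid-cycle in both endometrium and oviduct (15 found), beside 7 from the lists. Genes outside it were named after their values were seen. Of 74 library pairs of a group, 0 were identical. On simulated counts of 15299 genes for the mid-cycle comparison in the endometrium, 66 of 100 changes of 2-fold and 92 of 100 of 4-fold were recovered with 5 false calls, and on 15580 genes of the oviduct 60 and 89 with 11. For tissue differences on 16654 genes, 35 and 78 of 100 were recovered for endometrium against ovary and 28 and 74 for oviduct against ovary. Intervals and floors cover counting error only. Alternatives were DESeq2 1.42.0 and its size factors, no filter, only the days compared, limma 3.58.1, a replicate block, other rules for members, and leaving out each library.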

Additional observations from a re-analysis of the deposited data

Results flagged for a closer look

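The summed CPM of the cell division members and of the matrix and stroma members was checked in the 5 groups of 4 libraries, 10 checks in all, and in 2 of them a library lay far from the other 3. Both concern the cell division members. Library 1 of the ovary on day 12 had 2660.5 CPM, against 289 to 408 CPM in the others, and library 4 of the oviduct on day 15 had 1738 CPM, against 99.7 to 136 CPM. Chance gives such a gap in about 1 in 20 groups.

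The mid-cycle change differed between tissues, by the edgeR test of the difference itself, for 14 members between endometrium and ovary, 22 between oviduct and ovary and 17 between endometrium and oviduct. Against the ovary all of these were lower, where 6.15% and 7.19% of all genes were lower, and between endometrium and oviduct 4 were lower and 13 higher, where 5.92% and 8.18% of all genes were. The counts that include the endometrium (9.15% of members lower than in the ovary, and 2.61% and 8.50% against the oviduct) are near or under these backgrounds. Among the members named by rule, the log2 differences from the ovary were -3.82 in the endometrium and -4.47 in the oviduct for PPP1R14C, -1.72 and -1.81 for MYO7A, -1.50 and -1.48 for LRRC8C, and -1.44 and -2.22 for CD248. CRISPLD2 differed between oviduct and ovary by -1.73 and KDELR3 by -0.97.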

How the results depend on the processing

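Of the values that answer a comparison, 73 stayed within 1.5 times under the alternatives that keep all libraries and 8 did not. These values are counts without a sign, so they could not show a reversal of direction. DESeq2's Wald test gave 72 members lower mid-cycle in the oviduct, 31 lower in both tissues, 1 lower from day 3 to day 6 in the oviduct, 4 higher from day 12 to day 18 in the ovary and 1 lower from day 6 to day 12 in the ovary. A fit of only the days compared gave 9 lower in both tissues, limma-voom gave 10 differing between endometrium and oviduct, and a pseudocount of 5 CPM in the rule gave 66 members. The cause of these shifts was not tested.

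Without 1 library each, the members called in the mid-cycle test numbered 38 to 62 in the endometrium, 0 to 7 in the ovary, 0 to 66 in the oviduct and 0 to 27 in both. These counts are of members called lower, as were 13 to 25 from day 3 to day 6 in the endometrium. From day 12 to day 18, 17 to 49, 0 to 14 and 48 to 115 members were called higher in the endometrium, the ovary and the oviduct. From day 6 to day 12, 20 to 54 were called lower in the endometrium. Tissue differences were called for 8 to 17, 9 to 34 and 11 to 24, and the rule found 93 to 177 members.

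For the named genes' mid-cycle changes, 129 values kept their call and 21 lost it under the alternatives with all libraries, 225 kept and 135 lost it without 1 library, and 0 reversed. In ovary day 18 against day 12, all genes split 361 lower to 97 higher by TMM and 171 to 58 by DESeq2's size factors. The replicate block gave 50 and 41 members lower mid-cycle in endometrium and oviduct, 29 in endometrium day 6 against day 3, 34 and 112 in day 18 against day 12, 54 in endometrium day 12 against day 6, and 12, 18 and 15 tissue differences, and changed none of these counts by over 1.5 times. By gene group it moved the cell division genes lower mid-cycle from 5 to 1 in the endometrium and from 0 to 7 in the oviduct, the matrix and stroma genes lower in the oviduct from 11 to 5, and the cell division genes lower in the oviduct than in the ovary from 1 to 0. Same-numbered libraries of a day in 2 tissues had a median r of 0.129 over 63 pairs (42 over 0.1). The closest library of the other tissue had the same number in 101 of 126 cases, a hint from the data. The paper describes collecting all 3 tissues from the gilts of each day, but the labels do not say which libraries share a gilt. Depth limits genes at or under 3 counts, such as OLFM4 and LBP on days 6 and 12 in the endometrium and on day 12 in the oviduct.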

Other observations

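By the mean of the 7 day means in CPM, 90 of the 153 members (58.8%) were highest in the ovary, 40 in the oviduct and 23 in the endometrium, whereas 27.8% of all 16934 genes tested were highest in the ovary, 31.3% in the oviduct and 40.9% in the endometrium. The matrix and stroma group shared this order with 12 of 17 genes highest in the ovary. The genes of other functions did not, with 23 of 49 highest in the oviduct. By the median over all libraries of a tissue, 89 of the 153 were highest in the ovary. On day 3, however, 75 were highest in the endometrium and 40 in the ovary, and on day 18, 66 were highest in the oviduct and 65 in the ovary. The rule used a ratio within each tissue and not these levels.

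SLC34A2, a cotransporter of sodium and phosphate, had 189, 360.0 and 963 CPM on day 6 in the endometrium and 8.53, 45.2 and 51.2 CPM on day 12, a log2 change of -3.95. In the oviduct it had 357 and 444 CPM on day 6 and 303 to 481 CPM on day 12. The early response gene IER3 had 1.39, 2.22 and 2.50 CPM on day 6 and 7.79, 27.2 and 73.3 CPM on day 12 in the endometrium, a log2 change of 4.12, and reached 816 CPM in a library of day 15. Both were named after their values were seen.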
